A study of Homo sapiens with 24 samples.

Results

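The H/ACA-box and Cajal-body small RNAs of A2780 cells are described here as 123 rows of a deposited expression table, 99 whose symbol starts with SNORA and 24 whose symbol starts with SCARNA. They are the rows with at least 1 RPKM (reads scaled for transcript length and library size) in at least 2 of 12 libraries, out of 130 rows with such symbols and among 11933 of 22446 rows that met the same minimum. A2780 is an established line of epithelial ovarian cancer cells, and all libraries come from this line. Cells were kept in a hypoxia chamber at 1% oxygen or in normoxia as the control, for 6 hr, 48 hr or 6 days, with 2 libraries of total RNA for each of the 6 groups. The groups were hypoxia at 6 hr (libraries 3 and 4) against normoxia at 6 hr (libraries 1 and 2), hypoxia at 48 hr (7 and 8) against normoxia at 48 hr (5 and 6), and hypoxia at 6 days (11 and 12) against normoxia at 6 days (9 and 10). Ribosomal RNA was depleted before sequencing, and all groups shared the same serum-containing medium.

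H/ACA small nucleolar RNAs are short RNAs that fold into hairpins and guide the conversion of uridine to pseudouridine in ribosomal RNA. They work in a particle with the pseudouridine synthase dyskerin (DKC1), NHP2, NOP10 and GAR1, and in human cells most of them are cut out of introns of host genes. Small Cajal body-specific RNAs (scaRNAs) sit in the Cajal body, a nuclear body where the RNAs of the spliceosome are modified, and they may carry H/ACA boxes, C/D boxes, which guide 2′-O-methylation, or both.

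Some member RNAs also hold the hairpin of an annotated microRNA. For MIR664A, MIR1248 and MIR1291 alone of these hairpins, the same locus is read in both deposited tables. RefSeq (GRCh38.p14) places 7 such hairpins over members, among them MIR6516 in SCARNA16 and MIR3651 in SNORA84. The other 5 are printed here, 5′ to 3′ with the annotated mature microRNA in capitals, because they lie in members that rose at 6 days (SNORA36A, SCARNA3 and SNORA34), in a relative (SNORA36B) and in the member of highest level (SNORA81). They lie at chrX:154768596-154768656 on the plus strand (MIR664B), chr1:220200538-220200619 on the minus strand (MIR664A), chr3:186786672-186786777 on the plus strand (MIR1248), chr12:48654444-48654530 on the minus strand (MIR1291) and chr1:175968370-175968479 on the minus strand (MIR1843).
MIR664B in SNORA36A: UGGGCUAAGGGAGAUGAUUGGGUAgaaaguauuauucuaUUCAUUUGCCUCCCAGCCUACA
MIR664A in SNORA36B: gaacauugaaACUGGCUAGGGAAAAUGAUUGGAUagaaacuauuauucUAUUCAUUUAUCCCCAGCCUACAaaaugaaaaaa
MIR1248 in SNORA81: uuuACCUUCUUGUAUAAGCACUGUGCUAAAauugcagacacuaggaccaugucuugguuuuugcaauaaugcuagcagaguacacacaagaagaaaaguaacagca
MIR1291 in SNORA34: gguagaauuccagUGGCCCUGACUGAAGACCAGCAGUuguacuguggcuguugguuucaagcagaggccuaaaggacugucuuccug
MIR1843 in SCARNA3: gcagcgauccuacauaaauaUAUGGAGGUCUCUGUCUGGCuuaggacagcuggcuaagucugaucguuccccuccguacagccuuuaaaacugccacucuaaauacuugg
The member covers 61 of 61 bases of the MIR664B hairpin, 74 of 82 of MIR664A, 102 of 106 of MIR1248, 75 of 87 of MIR1291 and 83 of 110 of MIR1843.

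The steps of the precursor microRNA values put the libraries at 25.2 to 51.8 M reads. On that scale SNORA81, the member of highest level, stood on 28900 to 75000 reads in a library and SNORA16B, the lowest, on 0 to 5. Nothing in the labels tells separate cultures from repeat libraries, and every p value here therefore reflects only library-to-library spread, which may be technical. Of 6 hypoxia genes used to check the labels (CA9, PDK1, BNIP3, SLC2A1, ADM and ANGPTL4), 5 rose in hypoxia at 6 hr and 6 at each of the later times. Of 6 epithelial markers 3 passed the minimum (EPCAM, KRT8 and KRT18), while 0 of 3 Mullerian ovarian markers, 0 of 4 leukocyte and 0 of 3 endothelial markers did. Of 4 fibroblast markers 3 passed it, and at 6 days LUM (log2 0.86) and DCN (0.32) rose and COL3A1 (0.05) did not pass, while COL1A1 stayed at 0.773 and 0.785 RPKM in hypoxia and 0.509 and 0.658 RPKM in normoxia. Their part in the results was not tested. The members differed between the libraries of a group more than all rows did, by the median absolute log2 difference. It was 0.18 to 0.39 over the members and 0.089 to 0.2 over all rows. The signed differences were as follows. In the normoxia libraries at 6 hr, 105 of 123 members were higher in library 1 than in library 2, with a median difference of 0.36 on the log2 scale, against 0.14 over all rows. In the normoxia libraries at 48 hr, 115 were higher in library 5 than in library 6 (median 0.36, against -0.026 over all rows). In the hypoxia libraries at 6 days, 102 were higher in library 11 than in library 12 (median 0.25, against 0.019 over all rows). The members' medians were smaller in the other groups. They were 0.15 in hypoxia at 48 hr (library 7 over 8, against 0.031 over all rows) and 0.12 in normoxia at 6 days (library 9 over 10, against -0.026). In hypoxia at 6 hr the median was 0.035 (library 3 over 4), below the 0.062 over all rows. The members' median thus favoured the lower-numbered library in every group, and the reason was not tested.

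The members were abundant for this table. Their mean RPKM over the 12 libraries had a median of 348, against 6.09 over all rows tested, and 94 of 123 averaged at least 100 RPKM, 26 at least 1000 and 4 under 10. The SNORA rows had a median of 434 RPKM and the SCARNA rows 166, beside 451 for the 213 tested rows of box C/D small nucleolar RNAs (SNORD), the methylation guides of the nucleolus. The 10 members of highest mean level held 37.7% of the summed level of all 123, and in falling order they were SNORA81, SNORA4, SNORA33, SNORA31, SNORA24, SNORA27, SNORA23, SNORA44, SNORA45 and SNORA75.

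SNORA81, which lies with SNORA4 and SNORA63 inside the translation factor gene EIF4A2, had 4385 and 5540 RPKM in hypoxia and 8170 and 6545 in normoxia at 6 hr. At 48 hr it had 5242 and 4628 RPKM in hypoxia and 6323 and 5676 in normoxia, and at 6 days 9914 and 9542 in hypoxia and 6167 and 6123 in normoxia. Its hypoxia libraries thus lay below the normoxia ones at 6 hr and 48 hr and above them at 6 days, and no comparison of hypoxia with normoxia passed the threshold (log2 fold change -0.57, -0.28 and 0.66 at 6 hr, 48 hr and 6 days, adjusted p from 0.0978 to 0.596, limma). Among the rows of low level, SNORA16B and SNORA70E lay just inside the minimum, with a second highest value of 1.13 and 2.51 RPKM. SNORA29 and SNORA70D lay just outside it, at 0.819 and 0.734 RPKM. The remaining rows outside were SNORA35, SNORA70C, SNORA70F, SNORA70G and SNORA11E, the last listed at 0 in all 12 libraries.

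Several members have near-identical copies elsewhere in the genome, and how the authors split reads between copies is not given in the sources used here. SNORA59A and SNORA59B carried the same value in every library, so the 123 members are 122 distinct rows. The SNORA11, SNORA70, SNORA71, SNORA36, SNORA14, SNORA2, SNORA7 and SNORA5 families and SCARNA9 with SCARNA9L are likewise uncertain as single genes. Other members share a family by symbol and may be uncertain too, among them SNORA16A and SNORA16B, SNORA38 and SNORA38B, and SNORA74A and SNORA74B. By current symbol SNORA45 belongs with SNORA3, SNORA43 with SNORA17, SNORA42 with SNORA80 and SNORA80B, and SNORA76 with SNORA50.

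At 6 days of hypoxia many members were higher and none passed as lower. Of 123 members 55 rose and 0 fell, against 23.9% of all 11933 rows that rose and 18.3% that fell, 42.2% in all (limma with Benjamini-Hochberg adjustment over all rows, adjusted p below 0.05). The median log2 fold change was 0.56 over the members and 0.036 over all rows, and 116 of the 123 members were above 0. Of the SNORA rows 39 of 99 rose (median 0.54) and of the SCARNA rows 16 of 24 (median 0.70). In 91 members both hypoxia libraries were above both normoxia libraries and in 1 member, SNORA52, below them, against 41.3% and 34.1% of all rows. Under quantile normalization 39 members rose and 5 fell (SNORA17, SNORA52, SNORA64, SNORA30 and SNORA16A), with a median of 0.22. Without library 10 (normoxia) 30 members were called and without library 11 (hypoxia) 31, and 24 of the 55 were called whichever library was left out.

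**Figure D1:**
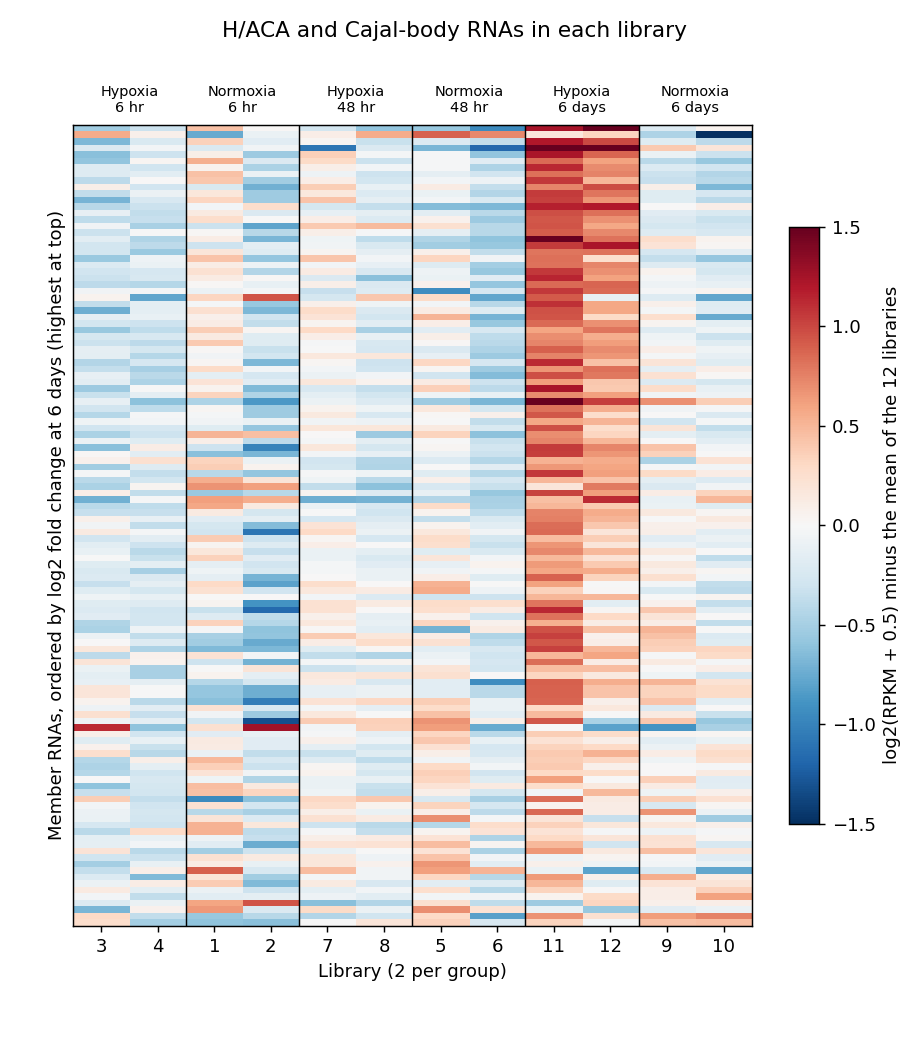
Level of each of the 123 members (rows, ordered by log2 fold change at 6 days) in each of the 12 libraries (columns, hypoxia left of normoxia at each time), as log2(RPKM + 0.5) minus the member's mean over the 12 libraries. The hypoxia libraries 11 and 12 at 6 days are above the member's mean in most rows, library 11 more so than library 12.

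The summed level was also higher. The 123 members summed to 126330 and 109730 RPKM in hypoxia at 6 days, against 84603 and 80783 RPKM in normoxia at 6 days. The sum over all rows was higher too, 869754 and 777320 RPKM in hypoxia and 674861 and 642550 RPKM in normoxia at 6 days. The members held 14.5% and 14.1% of it in hypoxia and 12.5% and 12.6% in normoxia. In hypoxia and normoxia at the earlier times the sums ran from 71945 to 99187 RPKM, so that library 12, the lower of the hypoxia libraries at 6 days, stood above all 10 others apart from library 11. Other short RNAs moved in the same direction: of the 213 SNORD rows 110 rose and 1 fell (median 0.84), of 155 microRNA gene rows (MIR) 52 rose and 8 fell (median 0.78), and of 35 rows of RNA polymerase III transcripts 19 rose and 3 fell (median 0.56). The 4 RNU rows had a median of 0.045. The members' difference between libraries 11 and 12 and the shift of the other short RNAs stand beside this result, and their part in it was not tested. In RNA from whole cultures, more cells of a kind and more RNA per cell cannot be told apart.

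**Figure D2:**
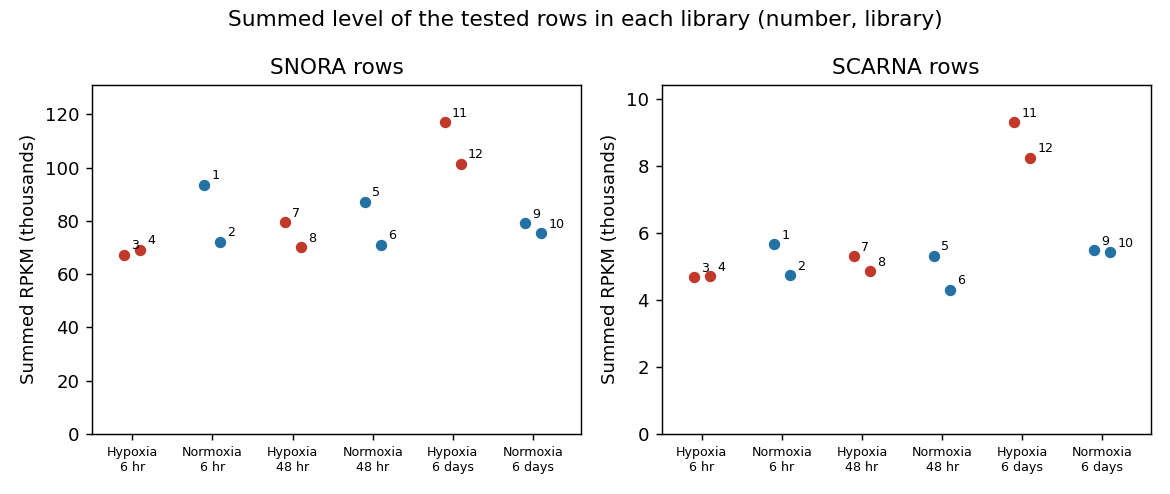
Summed RPKM of the 99 SNORA rows (left) and the 24 SCARNA rows (right) in each library, points numbered by library, hypoxia in red and normoxia in blue. Libraries 11 and 12 are highest in both panels.

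Among single members at 6 days SNORA11, held by the melanoma antigen gene MAGED2, had 306.5 and 416 RPKM in hypoxia and 112 and 134 RPKM in normoxia. This was the largest fold change of the members, 2.90-fold (log2 1.54 ± 0.20 SE, adjusted p = 0.000178, limma). SNORA11D, a relative with no tested host, had 79.9 and 81.1 RPKM in hypoxia and 35.6 and 30.6 RPKM in normoxia, a log2 fold change of 1.27 (adjusted p = 0.00146, limma). The other relatives SNORA11B and SNORA11C did not pass, at log2 0.26 and 0.02.

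SNORA14A, in the cytochrome P450 reductase gene POR, had 175.5 and 152 RPKM in hypoxia and 66.8 and 57.7 RPKM in normoxia. SNORA37, in the methyl-CpG binding protein gene MBD2, had 702 and 551 RPKM in hypoxia and 279.5 and 240 RPKM in normoxia. Both rose without overlap between the libraries, by log2 1.39 (adjusted p = 0.000289) and 1.26 (adjusted p = 0.00233) in limma. SNORA28, in the translation factor gene EIF5, had 1243 and 1050 RPKM in hypoxia and 518 and 463 RPKM in normoxia, and SNORA20, in the chaperonin gene TCP1, had 1525 and 1438 RPKM in hypoxia and 686 and 633 RPKM in normoxia. These members of higher level rose by log2 1.22 and 1.17.

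SNORA36A, in the dyskerin gene itself, had 343 and 256 RPKM in hypoxia and 136 and 128 RPKM in normoxia (log2 1.17, adjusted p = 0.000868, limma). SNORA70B, in the deubiquitinase gene USP34, had a log2 fold change of 1.49 (adjusted p = 0.0126, limma) but stood on at most 18 reads in a library. It had 1.80 and 2.08 RPKM in hypoxia and 1.00 and 0 RPKM in normoxia, and its call ended under 3 alternatives. No member fell, and the lowest values were those of SNORA52 (log2 -0.30), SNORA84 (-0.23) and SNORA17 (-0.21).

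**Figure D3:**
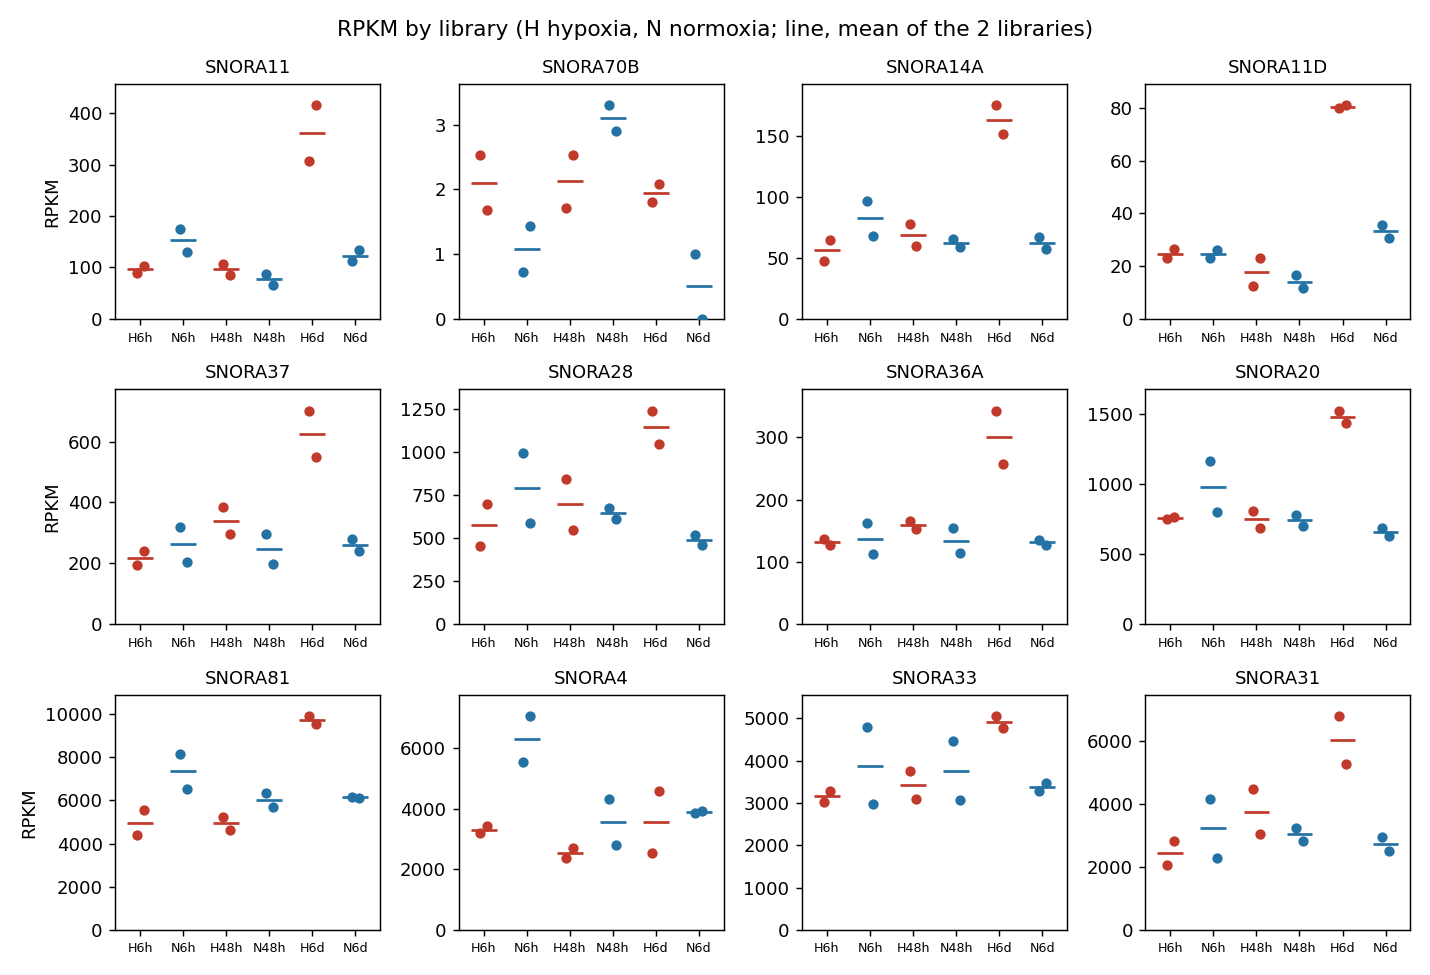
RPKM in each library (points) and the mean of the 2 libraries (line) for the 8 members with the largest rise at 6 days (upper 2 rows) and the 4 members of highest mean level (lower row), hypoxia in red and left of normoxia in blue at each time. The hypoxia points at 6 days lie above the normoxia points at 6 days in all panels but that of SNORA4.

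Of the 10 members of highest level 2 rose at 6 days, where 23.9% of all rows and 44.7% of the members rose. SNORA31, in the translationally controlled tumour protein gene TPT1, had 6782 and 5263 RPKM in hypoxia and 2937 and 2505 RPKM in normoxia (log2 1.14, adjusted p = 0.0201, limma). SNORA75, in the nucleolin gene NCL, had 3870 and 2584 RPKM in hypoxia and 1694 and 1454 RPKM in normoxia (log2 1.01, adjusted p = 0.0399, limma). The call of SNORA75 ended under 7 alternatives and that of SNORA31 under 4. The others ranged from log2 -0.19 (SNORA4) to 0.66 (SNORA81), with SNORA45 at 0.59, SNORA23 at 0.56, SNORA33 at 0.54, SNORA44 at 0.33 and SNORA27 and SNORA24 both at 0.14. Across the 123 members the log2 fold change had a Pearson r of -0.19 with log2 mean RPKM and 0.12 with length. These describe RNAs that share libraries and carry no test.

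Of the 24 scaRNAs 16 rose at 6 days, where 23.9% of all rows rose. Those of the box C/D kind and most of the mixed kind were among them. SCARNA21 (log2 1.15), SCARNA3 (1.13) and SCARNA4 (1.08), not placed in a kind here, rose as well. SCARNA2 and SCARNA9, box C/D guides for U2 small nuclear RNA, SCARNA7, a guide for U1, and SCARNA17, a guide for U4, are box C/D scaRNAs, and 4 of these 4 rose. SCARNA7 had 349 and 394.5 RPKM in hypoxia and 194.5 and 172 RPKM in normoxia at 6 days (log2 1.02, adjusted p = 9.78e-05, limma). SCARNA9 had 232.5 and 219 RPKM in hypoxia and 115 and 112 RPKM in normoxia (log2 0.99, adjusted p = 0.000123, limma). SCARNA2 rose by log2 1.04 and SCARNA17 by 0.76. Of the 5 tandem or mixed scaRNAs, SCARNA6 (log2 0.70), SCARNA13 (0.69), SCARNA5 (0.68) and SCARNA10 (0.56), which guides both modifications of U5, rose. SCARNA12 did not pass, with 323 and 381 RPKM in hypoxia and 333 and 475 RPKM in normoxia (log2 -0.18, adjusted p = 0.439, limma). SNORA65, an H/ACA guide for 28S ribosomal RNA, had 2038 RPKM in both hypoxia libraries and 1490 and 1583 RPKM in normoxia, which did not pass (log2 0.41, adjusted p = 0.157, limma).

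At 6 hr of hypoxia 2 members rose and 0 fell, against 3.39% and 0.201% of all rows, 3.59% in all. These were SNORA59A and SNORA59B, the identical rows, with 16.9 and 14.8 RPKM in hypoxia and 9.73 and 8.69 RPKM in normoxia (log2 0.75, adjusted p = 0.0127, limma). Their call ended without library 2, without library 3 and with no minimum on RPKM, each of which left 0 members called, and without library 1 there were 4 calls. The median over the members was -0.11, against 0.039 over all rows, and 73 of 123 were not above 0. Without overlap between libraries, 21 members were higher and 30 lower in hypoxia, against 24.1% and 12.9% of all rows. The lowest values were those of SNORA16B (log2 -1.0), SNORA79 (-0.94) and SNORA4 (-0.92), and they did not pass. SNORA4 had 3181 and 3410 RPKM in hypoxia and 5521 and 7050 RPKM in normoxia at 6 hr.

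At 48 hr 0 members rose and 0 fell (limma), against 9.24% and 2.89% of all rows, 12.1% in all. At an unadjusted p below 0.05 there were 6 higher and 0 lower, and other settings called 0 to 4. Without library 5 there were 4 calls, without library 1 or 2 there were 3 and without library 6 there was 1. The median was 0.06, against 0.01 over all rows, and 19 members were higher and 15 lower without overlap between libraries, against 33.3% and 29.6% of all rows. The highest values were those of SNORA57 (log2 0.71), SCARNA2 (0.52) and SCARNA22 (0.50), and the lowest those of SNORA70B (-0.47), SNORA4 (-0.47) and SNORA74A (-0.39).

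**Figure D4:**
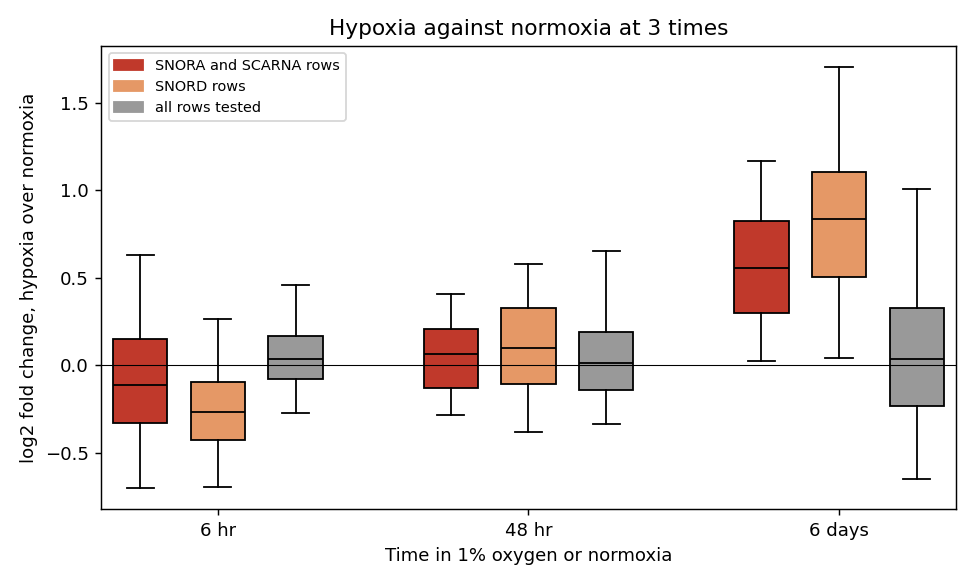
Log2 fold change of hypoxia over normoxia at 6 hr, 48 hr and 6 days for the 123 members (red), the 213 SNORD rows (orange) and all 11933 rows tested (grey). Boxes give the quartiles and the median and whiskers the 5th and 95th percentiles, and the members' median is -0.11, 0.06 and 0.56 at the 3 times.

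Over the 3 times together, with time as a term, 10 members rose and 0 fell, against 15.3% and 7.13% of all rows, 22.5% in all. The largest were SCARNA2 (log2 0.62), SCARNA21 (0.59), SNORA57 (0.56), SNORA47 (0.49), SCARNA5 (0.46), SNORA39 (0.45) and SNORA59A and SNORA59B (0.43). The call of SNORA39 ended under 12 alternatives, that of SCARNA21 under 9, that of SNORA57 under 6 and that of SCARNA2 under 1. SCARNA2 had 301 and 222.5 RPKM in hypoxia and 250 and 180 in normoxia at 6 hr. It had 409 and 434 RPKM in hypoxia and 368 and 234 in normoxia at 48 hr, and 601 and 466.5 RPKM in hypoxia and 259 and 256 in normoxia at 6 days. The lowest values, none past the threshold, were those of SNORA4 (-0.53), SNORA17 (-0.37) and SNORA74A (-0.30). Under quantile normalization 8 members rose and 4 fell. The count was 21 without library 1 and 6 without library 6, 9, 10 or 11.

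The difference between the hypoxia effects of 6 days and 48 hr passed the threshold in 9 members, each with the larger effect at 6 days, and in 0 with the smaller, against 5.38% and 5.31% of all rows, 10.7% in all. SNORA70B, on at most 18 reads in a library, had a difference of 1.96 that did not pass (adjusted p = 0.0503, limma). Of the 9 that passed, SCARNA11, in the chromatin remodeller gene CHD4, had the largest difference. It had 153.5 and 105.5 RPKM in hypoxia and 67.5 and 61.6 RPKM in normoxia at 6 days, and 59.4 and 44.8 RPKM in hypoxia and 64.3 and 61.3 RPKM in normoxia at 48 hr (difference of log2 fold changes 1.26, adjusted p = 0.0108, limma). SNORA14A (1.25), SNORA11 (1.21), SNORA20 (1.15), SNORA54 (0.94), SNORA5C (0.91), SCARNA3 (0.78), SCARNA9 (0.72) and SCARNA7 (0.61) were the others. The lowest differences were those of SNORA57 (-0.52), SNORA52 (-0.33) and SNORA5B (-0.17), none past the threshold. The count was 18 without library 1 or 2, 4 without library 7, 3 without library 9, 2 without library 5, 11 or 12 and 1 without library 8 or 10. The median difference was 0.55 over the members and 0.025 over all rows, and under quantile normalization it was 0.16 over the members.

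Between 48 hr and 6 hr the difference passed in 0 members (limma; 9 higher and 2 lower at an unadjusted p below 0.05), against 0.511% and 0.0168% of all rows, 0.528% in all. Without library 1 there was 1 call. SNORA16B (1.31), SNORA11 (0.98) and SCARNA3 (0.83) had the highest values and SNORA70B (-1.22), SNORA1 (-0.71) and SNORA15 (-0.69) the lowest.

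The members were also compared over time. In hypoxia at 6 days against hypoxia at 6 hr 81 members rose and 0 fell, against 35.1% and 29.8% of all rows, 64.9% in all, with a median of 0.79 over the members and 0.057 over all rows. Under quantile normalization 58 members rose and 4 fell, with a median of 0.36. This comparison shares the hypoxia libraries of 6 days with the one above, so that the 52 members that rose in both are not independent of each other. The largest rise was that of SNORA11, with 306.5 and 416 RPKM at 6 days and 90.2 and 103 RPKM at 6 hr in hypoxia (log2 1.88, adjusted p = 1.36e-05, limma). SNORA11D (1.68), SNORA47 (1.63), SCARNA3 (1.55), SNORA14A (1.54), SNORA37 (1.52), SNORA77 (1.49) and SCARNA7 (1.46) followed. SCARNA3 had 569 and 584 RPKM at 6 days and 189.5 and 203 RPKM at 6 hr in hypoxia. Of the SCARNA rows 21 of 24 rose and of the SNORA rows 60 of 99. The lowest values, none past the threshold, were those of SNORA70E (-0.66), SNORA51 (-0.32) and SNORA70B (-0.08). In 105 members both libraries of 6 days were above both of 6 hr and in 0 below, against 44.7% and 38.1% of all rows. Without library 11 the count of calls was 53.

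In normoxia at 6 days against normoxia at 6 hr 19 members rose and 5 fell, against 30.9% and 25.9% of all rows, 56.7% in all, and the median was 0.041, beside 0.043 over all rows. SNORA47, in the zinc finger gene ZBED3, had 43.1 and 34.5 RPKM at 6 days and 19.1 and 14.4 RPKM at 6 hr in normoxia (log2 1.19, adjusted p = 0.000377, limma). SNORA84 (1.18), SNORA57 (1.08), SNORA52 (1.06), SNORA5A (1.00), SNORA59A and SNORA59B (0.97) and SNORA55 (0.97) were the next. SNORA70E (-1.44), SNORA16B (-1.12), SNORA40 (-0.78), SCARNA15 (-0.67) and SNORA20 (-0.55) fell, the first 2 on at most 13 and 5 reads in a library. SNORA40 had 872 and 977 RPKM at 6 days and 1609 and 1554 RPKM at 6 hr. Without overlap between libraries 36 members were higher and 21 lower at 6 days, against 40.5% and 34.3% of all rows. Without library 9 the count of calls was 12 and with no minimum on RPKM it was 10. The 35 RNA polymerase III rows moved far in the same comparisons, with 31 lower at 6 days in normoxia (median -2.90) and 31 lower in hypoxia (median -2.10), and their relation to the members was not tested.

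At 48 hr against 6 hr 0 members were called in normoxia, against 0.00838% of all rows higher and 0.0838% lower, 0.0922% in all, with 10 higher and 11 lower at an unadjusted p below 0.05 (limma). SNORA70B (1.23), SNORA1 (1.18) and SNORA55 (0.97) had the highest values, and SNORA79 (-1.04), SNORA11 (-0.99) and SNORA40 (-0.93) the lowest. In hypoxia 0 were called as well, against 4.94% and 0.905% of all rows, 5.84% in all, with 5 higher and 2 lower at an unadjusted p below 0.05 (limma). The highest values there were those of SCARNA2 (0.70), SNORA37 (0.64) and SNORA31 (0.61) and the lowest those of SNORA11D (-0.53), SNORA71B (-0.52) and SNORA4 (-0.39). Other settings gave 0 to 3 calls in normoxia, with 3 without library 1, and 0 to 1 in hypoxia, with 1 without library 8.

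Most members lie within another gene. By position in RefSeq 113 of the 123 had a tested row for a gene whose span holds them, 90 distinct host genes in all, and 38 members shared 15 of these hosts with another member. The strand of the members was not checked. At 6 days, of the 90 hosts 18 rose and 18 fell, with a median of -0.016, where 23.9% of all rows rose and 18.3% fell. Of the 50 risen members with a host, the host rose for 14, fell for 8 and was not called for 28. Across the 113 members, Pearson r between the log2 fold changes of member and host was 0.23 and Spearman's rho 0.19, a description over RNAs that share libraries and, in part, hosts.

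Members that share a host are given side by side, with no test of the difference between them. The dyskerin gene DKC1 holds SNORA36A, which rose by log2 1.17, and SNORA56, which had 402 and 323 RPKM in hypoxia and 307 and 301 RPKM in normoxia at 6 days and did not pass (log2 0.24). DKC1 itself fell by 0.36 on the log2 scale. TBRG4 holds SNORA5C, which rose by 1.02, SNORA5A at 0.42 and SNORA5B at -0.05, the last 2 not past the threshold, beside 0.07 for TBRG4. Of the 6 members in TAF1D, a subunit of an RNA polymerase I factor, SNORA32 rose (0.64), and SNORA8 (0.71), SNORA40 (0.62), SNORA18 (0.45), SNORA1 (0.31) and SNORA25 (0.23) did not pass, while TAF1D rose by 0.55. In EIF4A2, SNORA81 (0.66), SNORA63 (0.45) and SNORA4 (-0.19) did not pass, beside 0.06 for the host.

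Hosts of other named members at 6 days had log2 fold changes of 0.76 for TPT1, 0.58 for MAGED2 and 0.43 for MBD2, which rose, and -0.31 for EIF5, which fell. POR (0.23), TCP1 (-0.04), USP34 (-0.15) and NCL (-0.14) did not pass. SNORA54 and its host NAP1L4, a histone chaperone, moved in opposite directions (1.09 and -0.28), as did SNORA58 and MRPL3, a protein of the mitochondrial ribosome (0.79 and -0.60), and SCARNA11 and CHD4 (0.98 and -0.47), all past the threshold. SNORA51 in NOP56, a box C/D core protein, was at 0.05 while the host fell by 0.88. Among the abundant members, the hosts RPS12 of SNORA33 (0.02), RPL21 of SNORA27 (-0.13), IPO7 of SNORA23 (0.09), SNHG12 of SNORA44 (-0.23) and RPL27A of SNORA45 (-0.41) did not pass, and SNHG8 of SNORA24 fell by 0.54.

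**Figure D5:**
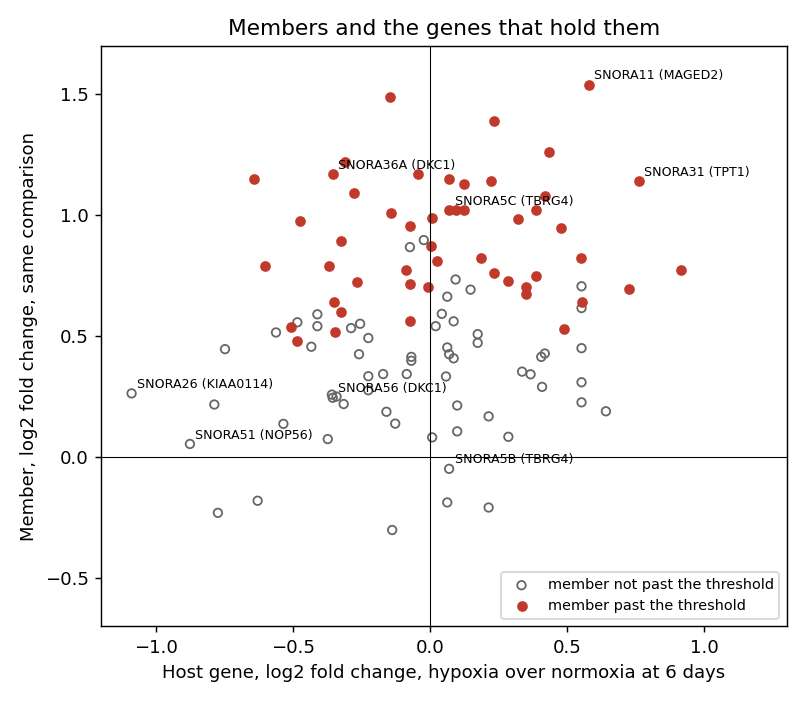
Log2 fold change of hypoxia over normoxia at 6 days of each of 113 members (vertical axis) against that of its host gene (horizontal axis), filled where the member passed the threshold. Members past the threshold lie above 0 on both sides of the host's 0 line, and r is 0.23.

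The precursor microRNA table held rows for 3 of these hairpins. The mir-1248 and mir-1291 rows stood on far fewer reads than SNORA81 and SNORA34 around them, while mir-664 stood on 12.1 to 109 reads in a library and SNORA36B on 20.3 to 113. The mir-664 row, the hairpin in SNORA36B, had 27.8 and 38.8 RPKM in hypoxia and 8.61 and 11.2 RPKM in normoxia at 6 days (log2 1.69, adjusted p = 0.0507, limma over 166 precursors, of which 10.8% rose). SNORA36B had 25.9 and 20.7 RPKM in hypoxia and 16.72 and 11.99 RPKM in normoxia at 6 days (log2 0.69, adjusted p = 0.067, limma). Neither passed, though the hypoxia libraries lay above the normoxia ones in both tables. The mir-1248 row, in SNORA81, had 69.4 and 66.4 RPKM in hypoxia and 39.2 and 30.7 RPKM in normoxia (log2 0.96, adjusted p = 0.0765, limma), on 98.6 to 244 reads in these 4 libraries. The mir-1291 row, in SNORA34, had 5.44 and 15.5 RPKM in hypoxia and 3.89 and 1.71 RPKM in normoxia (log2 1.65, adjusted p = 0.0569, limma), while SNORA34 itself rose by log2 0.71. In hypoxia at 6 days against 6 hr, mir-664 (log2 2.08, adjusted p = 0.0178) and mir-1248 (1.07, adjusted p = 0.0422) rose in limma, against 23.5% of the 166 precursors, and mir-1291 did not pass (1.05, adjusted p = 0.166). The reads of a hairpin and of the member around it come from the same libraries and locus, so the tables are not independent.

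Most genes of the core particle were lower in hypoxia than in normoxia at 6 days. Of the 4 core proteins 0 rose and 3 fell, with a median of -0.43, where 23.9% of all rows rose and 18.3% fell, the shares against which the counts of the other lists at 6 days also stand. GAR1 had 6.83 and 6.52 RPKM in hypoxia and 10.2 and 11.9 RPKM in normoxia (log2 -0.68, adjusted p = 0.00033, limma), and NHP2 (-0.51) and DKC1 (-0.36) fell as well. NOP10 had a log2 fold change of -0.17 and did not pass. At 6 days against 6 hr 2 of the 4 fell in normoxia, GAR1 (-0.99) and DKC1 (-0.70), while NHP2 (-0.31) and NOP10 (0.16) did not pass. In hypoxia 3 of the 4 fell over the same time. Of all rows 25.9% fell in normoxia and 29.8% in hypoxia. At 48 hr GAR1 alone of the 4 passed (-0.41), and at 6 hr the 4 had adjusted p from 0.365 to 0.705 (limma). Of 8 assembly factors 4 were lower in hypoxia than in normoxia at 6 days and 0 higher. These were RUVBL1 (-1.13) and RUVBL2 (-0.57), AAA ATPases, NAF1 (-0.42), which is replaced by GAR1 as the particle matures, and PIH1D1 (-0.47). At 6 days against 6 hr 1 of the 8 rose and 5 fell in normoxia, and 0 rose and 6 fell in hypoxia. Of all rows 30.9% rose in normoxia and 35.1% in hypoxia. PIH1D1 rose in normoxia (0.74) and did not pass in hypoxia (-0.08).

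Of 16 Cajal body genes 2 rose and 2 fell at 6 days, when 42.2% of all rows were called, KIAA0947 (0.36) and SMN2 (0.29) upward and GEMIN8 (-0.49) and NARG2 (-0.28) downward. The scaffold COIL (0.32) and WRAP53 (-0.00), which binds scaRNAs and brings them to the Cajal body, did not pass. SMN2 shares near-identical sequence with SMN1, so its row is uncertain. At 48 hr GEMIN6 (-0.52) and GEMIN5 (-0.38) fell. At 6 days against 6 hr 2 of the 16 rose and 10 fell in normoxia, and 0 rose and 8 fell in hypoxia. Of all rows 30.9% rose and 25.9% fell in normoxia, and 35.1% and 29.8% in hypoxia. GEMIN8 (0.58) and NARG2 (0.29) rose in normoxia over this time and did not pass in hypoxia (-0.10 and -0.11). Of 12 genes of 3′-end trimming and decay 1 was higher and 3 lower in hypoxia than in normoxia at 6 days. The non-canonical poly(A) polymerase PAPD5 was higher (0.47). The deadenylases TOE1 (-0.79) and PARN (-0.42), which trims H/ACA RNA tails, and the exosome nuclease EXOSC10 (-0.54) were lower. At 6 days against 6 hr 2 of the 12 rose and 5 fell in normoxia, and 1 rose and 7 fell in hypoxia. Over this time PARN rose (0.31) and PAPD5 fell (-0.47) in normoxia, and neither passed in hypoxia (-0.15 and 0.05).

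Of the 12 pseudouridine synthases that work without a guide RNA 1 rose and 6 fell at 6 days, against 23.9% and 18.3% of all rows. PUS7 was higher in hypoxia than in normoxia (0.67), and PUS1 (-0.76), RPUSD2 (-0.61), RPUSD4 (-0.50), TRUB2 (-0.48), RPUSD3 (-0.44) and PUS10 (-0.31) were lower. RPUSD4 was also lower at 48 hr (-0.34). At 6 days against 6 hr 2 of the 12 rose and 9 fell in normoxia, and 1 rose and 9 fell in hypoxia. Of all rows 30.9% rose and 25.9% fell in normoxia, and 35.1% and 29.8% in hypoxia. PUS7 fell over this time in normoxia (-0.99) and in hypoxia (-0.315). RPUSD3 (0.53) and PUS10 (0.30) rose in normoxia and did not pass in hypoxia (0.16 and -0.05). Of the 4 box C/D proteins FBL, the methyltransferase, rose (0.34) and NOP56 (-0.88) and NOP58 (-0.27) fell.

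Telomerase RNA (TERC), which carries an H/ACA domain and binds the same core proteins, is not a member by name. It averaged 45.8 ± 8.18 RPKM in hypoxia and 24.3 ± 0.734 RPKM in normoxia at 6 days (SD, n = 2 each; log2 0.89, adjusted p = 0.00107, limma). At 48 hr it had 28.1 and 27.8 RPKM in hypoxia and 21.5 and 17.5 RPKM in normoxia, which did not pass (log2 0.52, adjusted p = 0.0558, limma). TERT, the catalytic protein, rose at all 3 times, by log2 0.62, 0.78 and 0.69 at 6 hr, 48 hr and 6 days, on levels of 0.467 to 1.93 RPKM.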

How the data were processed

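The authors deposited a gene table and a precursor microRNA table, both in RPKM, with 1 column for each of the 12 libraries. Partek 6.6 and hg19 are named in the submitters' processing notes. How reads were aligned, which transcript models served and what was done with multiply matching reads is not given in the sources used here. The library protocol named in the labels is a whole-transcriptome kit with 75-base forward reads, so recovery of short RNAs can differ between libraries.

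Members and gene lists were chosen with earlier results of these data known. RPKM was used as deposited. Rows with at least 1 RPKM in at least 2 libraries were tested, 11933 gene rows and 166 precursors apart, on log2(RPKM + 0.5) in limma 3.58.1 (R 4.3.3), a scale that understates changes of low rows. The model had 6 group means (for the comparison over the 3 times, additive terms for time and oxygen) and an intensity trend. Two-sided p values were adjusted by the Benjamini-Hochberg method in each comparison over all rows tested, with 0.05 as the threshold, and the procedure was tested on simulated data. Rose and fell mean higher and lower in the first group named in a comparison. In hypoxia against normoxia they are therefore not changes over time. Lists are given as counts with no test. Hosts and hairpins come from RefSeq (GRCh38.p14), where all 123 members matched, 10 of them through older symbols.

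Reads per library were inferred from the steps of precursor values of up to 20 reads, of which 96.6 to 99.4% lay within 0.05 of whole reads. These steps were taken from the 743 of 939 precursors with a known length. No count model was used, because the gene rows do not lie on whole reads throughout: 70.5% of 132 member values of up to 100 reads did.

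Named in each comparison are up to 8 members past the threshold in each direction, or else the 3 most extreme as values. To these were added the 10 members of highest level, set scaRNAs with SNORA65 and SNORA73A and SNORA73B (not analysed here), rows next to the minimum, hosts, and list genes past the threshold. Members named beyond this rule, among them relatives and those sharing a host, were chosen after their values were seen. Alternatives changed the pseudocount, the minimum, the scaling, the trend, the libraries fitted and each library in turn. Sequences of the members themselves are not shown. Plots were made in Python 3.11.15 with matplotlib 3.10.9.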

Additional observations from a re-analysis of the deposited data

Results flagged for a closer look

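The hypoxia effect differed between 6 days and 48 hr in 9 members by a test of the difference itself (limma, adjusted p below 0.05). Each had the larger log2 fold change at 6 days. They were 7.32% of the members. Of all rows 5.38% had a larger effect at 6 days and 5.31% a smaller one, 10.7% in all. The differences were 1.26 for SCARNA11, 1.25 for SNORA14A, 1.21 for SNORA11, 1.15 for SNORA20, 0.942 for SNORA54, 0.91 for SNORA5C, 0.78 for SCARNA3, 0.723 for SCARNA9 and 0.615 for SCARNA7. SCARNA11 kept its call under all but 1 alternative. SNORA14A lost it under 5, SNORA11 under 6, SCARNA9 under 7, SNORA20 and SCARNA3 under 9 each, SNORA54 under 10 and SNORA5C under 11. For SCARNA7 this was not counted. With 2 libraries in a group, no library was tested as standing apart from its group.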

How the results depend on the processing

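No paired analysis was possible because the library numbers 1 to 12 all differ between groups and the labels name no pairs. The labels do not show that the libraries are unpaired either. The members' median favoured the lower-numbered library in every group, and whether those libraries were handled together was not tested. The counts of members called that moved by more than 1.5 times were as follows. At 6 hr the count of 2 became 0 with no minimum on RPKM, 4 with trimmed-mean centring, 6 with no intensity trend and 4 with only the groups compared. At 48 hr the count of 0 became 2 with quantile normalization, 1 with trimmed-mean centring, 2 with no intensity trend and 4 with only the groups compared. Over the 3 times, 10 became 5 with no minimum and 28 as the mean of the 3 effects in the model of 6 groups. For normoxia at 48 hr against 6 hr, 0 became 1 with a minimum of 5 RPKM, with trimmed-mean centring and with no trend, and for normoxia at 6 days against 6 hr 24 became 10 with no minimum. For hypoxia at 48 hr against 6 hr, 0 became 1 with quantile normalization and with only the groups compared. The difference of effects between 48 hr and 6 hr gave 1 with no trend, and that between 6 days and 48 hr gave 4 with no minimum and 18 with only the groups compared. Leaving out 1 library gave 0 to 4 at 6 hr, 0 to 4 at 48 hr, 30 to 60 at 6 days and 6 to 21 over the 3 times. It gave 0 to 3 and 12 to 27 for normoxia at 48 hr and 6 days against 6 hr, 0 to 1 and 53 to 82 for hypoxia, and 0 to 1 and 1 to 18 for the differences of effects. The causes were not tested. Of 57 named calls 30 held under every alternative run for them, and none reversed. Where a group was left with 1 library, that library was assumed to vary like the other groups. Depth limits the rows of low level: SNORA16B, SNORA70B and SNORA70E stood on at most 18 reads in a library.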
